A study of Mus musculus with 6 samples.

Results

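Among 16225 cells of day 6 embryoid bodies grown towards motor neurons, 310 cells held at least 2 UMIs (unique molecular identifiers, each standing for 1 captured RNA molecule) of the germ cell genes Dazl and Stra8 together. They were drawn from every barcode with at least 1000 detected genes and at most 10% mitochondrial UMIs, and the 15915 other cells that passed this filter served for comparison. The cells came from mouse embryonic stem cells of the HB9::GFP line, in which a fluorescent reporter marks motor neurons. A total of 2 clones were sequenced for each of 3 genotypes, with 1 library per clone by droplet 3' RNA sequencing. WT is labelled wild type, DeltaSP carries the genotype lncMN2_SP-/-, and KO carries lncMN2-/-, the latter both made with CRISPR/Cas9 at the lncMN2 locus. All 6 libraries share the reporter line and the differentiation protocol. Each library is 1 clone, so clone, library preparation and depth cannot be told apart from one another, and p-values measure only the spread between libraries.

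The deposited counts held 24215 barcodes and 201615681 UMIs, with 24191242 to 49061693 UMIs per library. WT 1 was the shallowest library per cell, where the median kept cell had 4157 UMIs, while in the remaining 5 libraries it had 11898.5 to 15112. WT 1 also stood apart in the clustering described below: 3 clusters, of 1051, 851 and 724 cells, held 1027, 831 and 712 cells of WT 1 and no KO cell. A total of 38 barcodes of kept cells occurred in more than 1 library, and 3 of the Dazl and Stra8 cells carried such a barcode. The targeted long non-coding RNA 5330434G04Rik (mm10 chromosome X, 105348282 to 105391776, minus strand) reached 32.5 and 33.5 CPM (the gene's UMIs divided by all UMIs of the cells that were summed, here all kept cells of a library, and multiplied by 1000000) in the WT libraries, 23.4 and 22.2 CPM in the DeltaSP libraries, and 0.133 and 0.191 CPM in the KO libraries. It was lower in both KO libraries than in any other library, as the KO label says, whereas 3' tags do not check the DeltaSP edit.

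Dazl encodes an RNA-binding protein that germ cells use to control the translation of their messages, and Stra8 encodes a nuclear factor that retinoic acid switches on and that starts the meiotic programme. In somatic cells, many germ cell genes are held silent by DNA methylation and by a variant Polycomb complex (PRC1.6) that reaches them through the E-box factors MGA and MAX and through E2F6. Motor neuron differentiation in culture relies on retinoic acid and a hedgehog signal, and retinoic acid is also the signal that induces Stra8 in the fetal gonad.

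The label of germ cells was checked against genes that define primordial germ cells. In the 310 cells, Prdm1 and Prdm14, regulators that specify the germ line, had 1 UMI each, Nanos3, which protects early germ cells, had 4 UMIs, and Nanos2, T and Tcl1 had none. Pou5f1, the core pluripotency factor that primordial germ cells keep, was detected in 7 cells (2.26%, exact 95% interval 0.913 to 4.597%). Ddx4, the RNA helicase used as a general germ cell marker, was detected in 60 cells (19.4%), against 1.98% of the other cells. Others of the 16 specification genes were detected in more cells, Ifitm3 in 234, Dnd1 in 118 and Kit in 37, while 6 were too low to be tested below. Over all kept cells of a library, Ifitm3 reached 82.9 to 318 CPM, Dnd1 1.08 to 6.80 and Kit 2.78 to 4.74. Ifitm3 was thus common outside these cells too. Since several defining genes of primordial germ cells were at or near 0 while others were present, the cells are called here by the pair of genes that chose them.

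Several of the germ cell genes described below carry, in the 250 bases before their start, the E-box CACGTG and the E2F-type motif TCCCGC. The windows of Sycp3 and Hormad1 (axis proteins of meiotic chromosomes), Mael (piRNA pathway) and Ddx4 are shown because each holds both motifs. They are from RefSeq, build GRCm38.p6, and run 5′ to 3′ on the strand of the gene; capitals mark CACGTG and TCCCGC or its reverse complement GCGGGA. Sycp3 lies on the plus strand at chr10:88459337-88459586, Hormad1 on the plus strand at chr3:95559427-95559676, Mael on the minus strand at chr1:166238745-166238994 and Ddx4 on the minus strand at chr13:112652311-112652560.
Sycp3: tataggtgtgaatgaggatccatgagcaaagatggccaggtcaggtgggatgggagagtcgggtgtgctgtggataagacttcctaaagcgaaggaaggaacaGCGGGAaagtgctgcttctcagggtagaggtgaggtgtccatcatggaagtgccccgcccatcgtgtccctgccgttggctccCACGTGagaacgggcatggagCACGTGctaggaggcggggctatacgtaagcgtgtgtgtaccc
Hormad1: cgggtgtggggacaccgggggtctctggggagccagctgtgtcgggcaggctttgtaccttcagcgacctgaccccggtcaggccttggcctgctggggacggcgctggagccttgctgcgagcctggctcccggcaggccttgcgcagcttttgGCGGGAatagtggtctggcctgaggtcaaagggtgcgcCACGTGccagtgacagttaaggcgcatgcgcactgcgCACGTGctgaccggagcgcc
Mael: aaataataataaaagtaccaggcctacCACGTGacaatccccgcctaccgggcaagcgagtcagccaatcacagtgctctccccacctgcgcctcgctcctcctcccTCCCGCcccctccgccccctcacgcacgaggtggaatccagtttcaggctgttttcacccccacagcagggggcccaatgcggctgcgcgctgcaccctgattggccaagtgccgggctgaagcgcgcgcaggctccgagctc
Ddx4: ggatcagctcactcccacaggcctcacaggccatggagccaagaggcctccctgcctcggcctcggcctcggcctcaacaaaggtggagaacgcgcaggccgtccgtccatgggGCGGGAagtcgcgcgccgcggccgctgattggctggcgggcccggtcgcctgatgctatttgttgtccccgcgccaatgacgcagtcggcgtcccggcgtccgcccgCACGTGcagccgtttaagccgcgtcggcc

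Of the 52 genes of the germ cell lists whose summed UMIs were higher in the Dazl and Stra8 cells, 41 had a window in the promoter table. CACGTG, searched on both strands, occurred in 15 of these 41 (36.6%), against 6.86% of 27025 genes with a window of the same length. TCCCGC occurred in 17 of 41 (41.5%) against 18.8%, and both motifs in 6 of 41 (14.6%) against 1.98%. The site AGGTCA repeated in the same direction with 5 or 2 bases between, spacings bound by retinoic acid receptors, occurred in 0 of 41, against 0.0111% and 0.0074% of all genes. Only 3 and 2 of the 27025 genes held these repeats, so 0 of 41 says little about sites for these receptors. The windows of Dazl and Stra8 themselves held none of the motifs searched, but that of Stra8 held 2 single AGGTCA sites. Some of the genes were put on the lists as known targets of the repressor complex, so these shares describe the lists and are not independent of their choice.

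The rule fixes that the cells hold Dazl or Stra8, and the next values are given as a description without a test. Stra8 (mm10 chromosome 6, 34920163 to 34939344, plus strand) was detected in 298 of the 310 cells and Dazl (chromosome 17, 50279395 to 50293636, minus strand) in 117. Both were detected in 105 cells, Stra8 without Dazl in 193 and Dazl without Stra8 in 12. Stra8 was thus the gene that brought in most of the cells. The median cell held 15 UMIs of the pair and the highest 191, where 2 would have been enough. Of all UMIs in kept cells, 96.8% of 5958 for Stra8 and 97.3% of 963 for Dazl lay in these 310 cells, and 214 other cells (1.34%) held exactly 1 UMI. Stra8 in the summed cells stood at 508 CPM in WT 1, 1219 in WT 2, 1629 in DeltaSP 1, 1120 in DeltaSP 2, 1126 in KO 1 and 715 in KO 2, and Dazl at 181, 117, 183, 149, 235 and 147 CPM in the same order.

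What else the cells expressed changed partly at the threshold of the rule and partly above it. The 20 cells with exactly 2 UMIs held Rbmxl2, a testis RNA-binding protein, at 77.2 CPM, and Tubb3, the neuronal tubulin, at 1248 CPM. The 214 cells with 1 UMI, just outside, held them at 5.78 and 1073 CPM. In the 80 cells with 3 to 9 UMIs, Rbmxl2 stood at 111 and Tubb3 at 190 CPM. The 210 cells with 10 or more UMIs held Rbmxl2 at 193 and Tubb3 at 140 CPM. Cells near the threshold were therefore closest to the remaining cells in Tubb3, while cells far above it had little of this neuronal transcript.

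**Figure D1:**
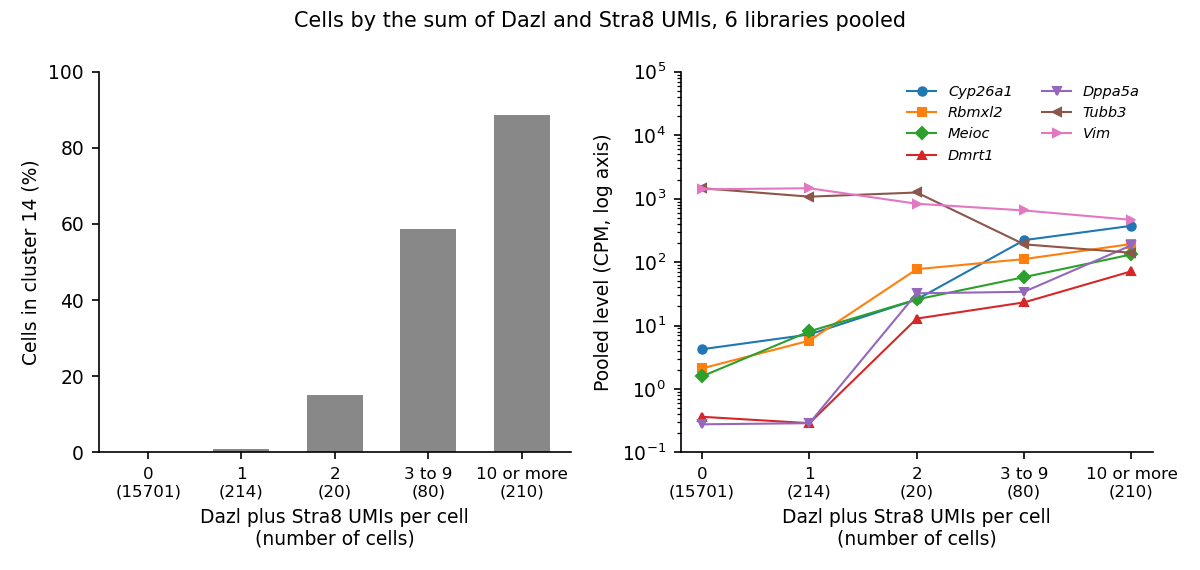
Cells grouped by their summed UMIs of Dazl and Stra8 (x axis). Left, percent of the cells of each group that fell into the cluster holding most Dazl and Stra8 cells, rising from 0.102% at 0 UMIs to 88.6% at 10 or more; right, pooled CPM on a log axis of 7 genes, of which Cyp26a1, Rbmxl2, Meioc, Dmrt1 and Dppa5a were higher and Tubb3 and Vim lower at 10 or more UMIs than at 0.

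To see whether the cells formed a group of their own, all kept cells were clustered without Dazl and Stra8. A single cluster of 254 cells took in 236 of the 310 (76.1%, exact 95% interval 71.0 to 80.8%), and 92.9% of its cells were Dazl and Stra8 cells. The genes that led this cluster were Cyp26a1, Dppa5a, Hspb1, Rbmxl2, Mt1, Phlda2, Epcam, Rhox5, Cyba and Tuba3a. They include genes of retinoic acid breakdown, of the early embryo, of stress and of the germ line. Its 18 other cells, 16 of them with no UMI of the pair, also held Rbmxl2 (157 CPM) and Cyp26a1 (219 CPM), and they had more Epcam (366 CPM) than the Dazl and Stra8 cells of the cluster (196 CPM).

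The cluster was present in every library. From WT 1 to KO 2 it held 8, 9, 14, 105, 63 and 55 cells. Of these, 1, 7, 13, 102, 61 and 52 were Dazl and Stra8 cells, so in WT 1 only 1 of 8 cells of the cluster met the rule. WT 1 is the library with the lowest depth per cell.

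The remaining 74 cells lay elsewhere, 29 in a cluster whose leading genes include Vtn, Shh, Spon1 and Foxa2, and 20 in one whose leading genes include H19, Tgfbi, Col3a1 and Dcn. They held fewer UMIs of the pair (median 5 against 19 inside the main cluster) and more UMIs in all (median 20978.5 against 12286.5). In the cluster with Shh and Foxa2 they had Shh, the hedgehog ligand, at 89.3 CPM against 359 CPM in the other cells of that cluster, and Cyp26a1 at 121 against 7.24 CPM. Their profile there thus lay between the cluster's own cells and the main Dazl and Stra8 cluster in these genes. No doublet caller was run, and 61 of the 310 cells held over 2 times the median UMIs of their library. In the DeltaSP and KO libraries these were 17.5 to 23.5% of the Dazl and Stra8 cells, against 6.92 to 8.98% of the other cells. Each WT library had 1 such cell. The rule itself favours deep cells, and the part of doublets in the 74 cells was not tested.

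Free RNA in droplets can put single UMIs into cells that do not make a transcript. A UMI of Dazl or Stra8 was found in 0 of 851 cells of a cluster led by Gm2694, Gm26735 and Sst, which allows a share of up to 0.353% (3 counts) at a median depth of 5156 UMIs; 831 of these cells came from WT 1, the library with the fewest Dazl and Stra8 cells. It was found in 0.846% of 946 cells of a cluster led by Sst, Prph and Scg2 at a median depth of 19881 UMIs. In the clusters led by Shh and by Col3a1 genes, at median depths of 12063 and 14478 UMIs, the shares were 5.39 and 8.47%. All of these shares count the Dazl and Stra8 cells themselves. Exactly 1 UMI was held by 6 of 946 cells in the cluster with Prph, 45 of 1373 in that with Shh and 21 of 484 in that with Col3a1. The shares are pooled over libraries, and the clusters differ in which libraries they hold.

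The share of Dazl and Stra8 cells differed widely between libraries. They were 4 of 4499 kept cells in WT 1 (0.0889%, exact 95% interval 0.0242 to 0.227%), 9 of 1612 in WT 2 (0.558%, 0.256 to 1.06%), 15 of 2283 in DeltaSP 1 (0.657%, 0.368 to 1.08%), 134 of 3602 in DeltaSP 2 (3.72%, 3.13 to 4.39%), 80 of 2129 in KO 1 (3.76%, 2.99 to 4.66%) and 68 of 2100 in KO 2 (3.24%, 2.52 to 4.09%). Both KO libraries and DeltaSP 2 were high, and DeltaSP 1 was close to WT 2. The intervals cover counting error only.

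The mean share was 3.50% ± 0.367 in KO, 2.19% ± 2.17 in DeltaSP and 0.324% ± 0.332 in WT (SD, n = 2 libraries). KO exceeded WT by 3.17 percentage points, and no WT library reached a KO library (exact two-sided permutation test over libraries, p = 0.33, which is the smallest p that this design allows; 0.5 adjusted over the 3 comparisons). DeltaSP exceeded WT by 1.86 points with the same p, but this difference was 0.33 points without DeltaSP 2 and 3.40 points without DeltaSP 1. KO exceeded DeltaSP by 1.31 points with overlapping libraries (same exact test, p = 0.667), and lay 0.222 points below it without DeltaSP 1. Without WT 1 the differences from WT were 2.94 points for KO and 1.63 points for DeltaSP. No comparison of shares could pass a threshold of 0.05.

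Because the rule needs 2 UMIs, it favours deep cells, and WT 1 was shallow. After each cell was thinned to 3000 UMIs, which dropped 936 cells from WT 1 but 56 to 201 from any other library, the shares were 0.0561% in WT 1, 0.463% in WT 2, 0.505% in DeltaSP 1, 2.73% in DeltaSP 2, 2.80% in KO 1 and 2.002% in KO 2. The order of high and low libraries was as before, with KO 2.14 points above WT. Counted by the cluster found without the pair of genes, the shares were 0.178, 0.558, 0.613, 2.92, 2.96 and 2.62% in the same order. With Dazl alone at 2 UMIs or more, DeltaSP 1 (0.131%) fell below WT 2 (0.186%) and these genotypes overlapped.

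**Figure D2:**
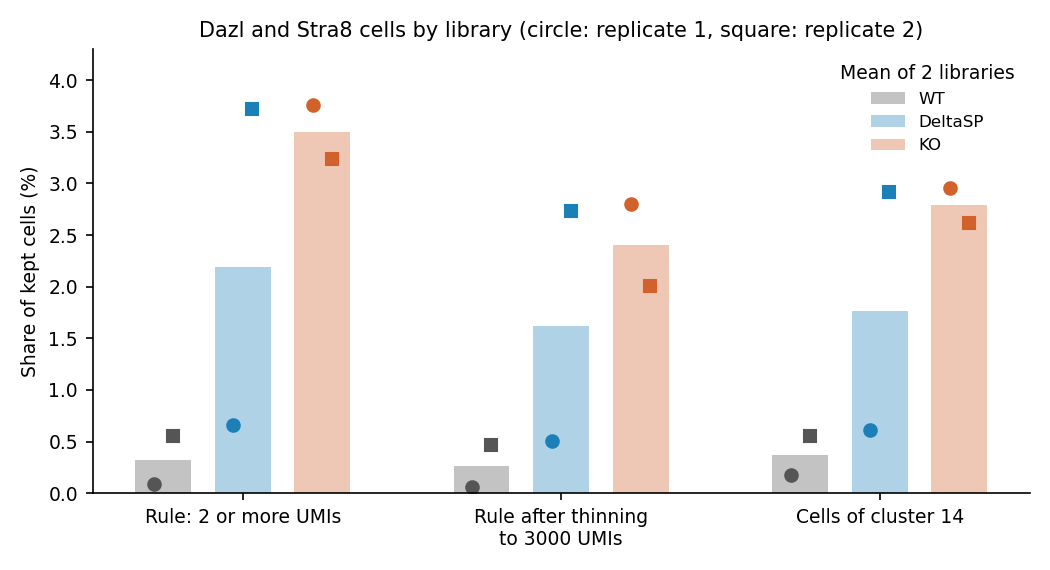
Percent of kept cells that were Dazl and Stra8 cells in WT, DeltaSP and KO, by the rule, after thinning to 3000 UMIs and counted as cells of the cluster found without the pair of genes. Bars are means of 2 libraries and points are libraries; both KO libraries and DeltaSP 2 lie between 2.002 and 3.76%, while WT 1, WT 2 and DeltaSP 1 stay at or below 0.657%.

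The pair was also read over all kept cells, where fewer cells of a kind and less RNA per cell cannot be told apart. Dazl stood at 0.295 and 0.850 CPM in WT, 1.28 and 7.55 in DeltaSP and 10.8 and 6.42 in KO. Stra8 stood at 0.984 and 8.46 CPM in WT, 11.6 and 57.7 in DeltaSP and 51.0 and 31.7 in KO. In KO against WT, Dazl differed by 3.62 ± 0.91 (log2 fold change ± SE, edgeR quasi-likelihood test, adjusted p = 0.0555) and Stra8 by 2.88 ± 0.95 (adjusted p = 0.0985). Neither passed 0.05, although both KO libraries were above both WT libraries in each gene. Dazl passed when DeltaSP 1 (adjusted p = 0.0187) or DeltaSP 2 (0.0205) was left out and with DESeq2 (0.0134), and Stra8 passed without WT 2 (0.0427, log2 fold change 5.07). With no filter on low counts both passed in edgeR, at adjusted p of 1.5e-14 for Dazl and 9.3e-17 for Stra8. The Dazl difference was then 3.64 with an SE of 0.392, so its p fell with the estimated spread and not with a larger difference. These p-values are therefore not read as stronger evidence.

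DeltaSP against WT gave 2.83 ± 0.91 for Dazl (adjusted p = 0.213) and 2.79 ± 0.95 for Stra8 (adjusted p = 0.223), with Dazl at 0.94 and Stra8 at 1.11 without DeltaSP 2. Without a filter on low counts both genes passed here too (edgeR, adjusted p = 2.2e-09 and 5.4e-16). Dazl then stood at 2.88 with an SE of 0.390, again a smaller estimated spread at nearly the same size. KO against DeltaSP gave 0.78 for Dazl, with 0.0017 without DeltaSP 1 and 2.69 without DeltaSP 2, and 0.09 for Stra8, with -0.67 and 1.79. Neither gene passed in it.

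Other germ cell genes were read in the same fits over all kept cells, where 2.81% of 14900 genes were higher and 4.71% lower in KO than in WT (7.52% in all) at adjusted p under 0.05. Of 33 genes of the meiosis list 18 were tested, and Meioc (2.84) and Psmc3ip (0.78) passed as higher in KO. Of 29 genes of the methylation-silenced list 20 were tested, and Tuba3b (5.35), Tuba3a (4.32), Meioc and Xlr4a (1.77) passed as higher. In the germline RNA list Pld6 (1.75) and Tex19.1 (2.08) passed of 13 tested. In the specification list Dnd1 (1.73) was higher and Nanos3 (-3.36) lower in KO. DeltaSP against WT had 0.289% of genes higher and 0.0671% lower (0.356% in all), and KO against DeltaSP 0.0% and 0.00671%. In neither did a gene of the meiosis, methylation-silenced or germline RNA lists pass. Of the specification list only Ifitm3 (1.52) passed, as higher in DeltaSP than in WT. Without WT 1, which leaves WT 2 alone and assumes that it varies like the other groups, 1 of 15326 genes was higher and 14 lower in KO, and none of the germ cell genes named here passed. Their sizes were then 2.85 for Meioc, 2.13 for Tex19.1 and 3.88 for Tuba3a, with adjusted p of 0.110, 0.0964 and 0.126 in edgeR.

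Interferon-induced genes moved between the same groups: of 12, 8 were higher in KO than in WT and 9 higher in DeltaSP than in WT (median log2 fold changes 3.23 and 4.82, against 0.00 and -0.01 over all genes). Markers of other cells moved as well between KO and WT: 11 of 25 S phase and 10 of 25 G2 and M phase genes were higher, and 7 of 15 pan-neuronal genes were lower (medians 0.62, 0.70 and -0.84). Without WT 1 none of the genes of these 4 lists passed, with medians of 0.55 for S phase, 0.68 for G2 and M phase, -0.92 for pan-neuronal and 3.17 for interferon-induced genes. The part of these lists in the share of Dazl and Stra8 cells and in their genes over all kept cells was not tested.

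Next, UMIs were summed per library over the Dazl and Stra8 cells and over all other kept cells, and the 4 libraries with at least 10 such cells (DeltaSP 1, DeltaSP 2, KO 1 and KO 2) were compared with library as a block. Of 14594 genes tested by edgeR's quasi-likelihood test, 3355 (23.0%) were higher and 3888 (26.6%) lower in the Dazl and Stra8 cells, which makes 49.6% in all, at a Benjamini-Hochberg adjusted p under 0.05. The median over all genes was -0.05. With about every other gene called, a call says little by itself, and sizes are given throughout as log2 fold change ± SE. For edgeR this SE is the size divided by the square root of the test's F statistic. It thus restates the test and is no separate measure of spread. Genes with few UMIs entered the fit mainly through the cells where they were high, so the counts per list are descriptions. The WT values, from 4 and 9 cells, are printed beside the others and were in no test.

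Meiosis genes were the group nearest to the function of Stra8. Of 33, 23 were tested, 16 were higher, 0 were lower and the median was 3.30. Meioc, which with a partner stabilises the meiotic programme, stood at 93.7, 88.3, 160 and 98.1 CPM in DeltaSP 1, DeltaSP 2, KO 1 and KO 2 and at 1.15 to 2.69 CPM in the other cells of these libraries (5.48 ± 0.17, adjusted p = 2.9e-13). It was detected in 205 of the 310 cells (66.1%), and reached 0 CPM in WT 1 and 83.5 CPM in WT 2.

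Of the meiotic cohesin genes, 3 were higher: Rec8, the cleavable subunit, at 238 to 281 CPM against 43.1 to 60.9 (2.21 ± 0.08), Smc1b by 5.04 ± 0.33 and Stag3 by 4.78 ± 0.44. Of the synaptonemal complex, which joins paired chromosomes, Sycp1 stood at 8.14, 32.1, 59.9 and 32.0 CPM against 0.168 to 0.417 (6.47 ± 0.32, detected in 71 cells), Sycp2 was higher by 4.35 ± 0.61 and Syce1 by 3.30 ± 0.23. Sycp3 was also higher (5.20 ± 0.95), but from 16 UMIs in 10 cells, and with 0 CPM in DeltaSP 1 and KO 2. Sycp1 was thus detected in more of these cells than Sycp3.

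Recombination genes were mixed. Hormad1, whose promoter is printed above, was higher by 5.86 ± 0.53, the strand-exchange protein Dmc1 by 3.39 ± 0.52, Hsf2bp by 4.80 ± 0.38 and Tex15 by 3.57 ± 0.41. Spo11, which makes the DNA breaks of meiosis, and the cohesin gene Rad21l had no UMI in the 310 cells. Prdm9, which places the breaks, did not pass (0.76 ± 0.40, from 20 UMIs in 19 cells), nor did Msh4 (2.21 ± 1.25, 3 UMIs) and Meiob (2.34 ± 0.98, 4 UMIs). Several meiosis genes thus were too low to read.

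Genes listed as silenced by promoter methylation outside the germ line gave the highest median of the germ cell lists. Not every gene of the list was silent here. Over all kept cells of a library, Trap1a reached 119 to 324 CPM and Tdrkh 41.6 to 91.4 CPM. Of 29, 24 were tested, 20 were higher, 1 (Tdrkh, -0.78 ± 0.11) was lower and the median was 4.68. The X-linked homeobox genes Rhox5, Rhox6 and Rhox9 were higher by 5.30 ± 0.18, 4.45 ± 0.32 and 5.50 ± 0.36; Rhox5 stood at 171, 168, 132 and 75.8 CPM against 1.46 to 4.68. Tuba3a and Tuba3b, testis alpha-tubulins of nearly the same sequence whose reads the counting may split, were higher by 5.65 ± 0.27 and 8.78 ± 0.43. Tuba3b was detected in 33 of the 310 cells and Rhox5 in 77, so high sums came from a minority of the cells.

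Germline RNA-binding and piRNA genes followed. Of 23, 16 were tested, 14 were higher, Tdrkh was lower and the median was 2.85. Tex19.1, which restrains transposons, stood at 183, 135, 171 and 120 CPM against 5.66 to 11.7 (3.75 ± 0.17). Ddx4 was higher by 2.72 ± 0.28 at only 8.14 to 18.95 CPM, Mael by 2.98 ± 0.39, the kinase gene Stk31 by 4.90 ± 0.39 and Fkbp6 by 4.72 ± 0.43. Piwil2, a piRNA-binding Argonaute protein, was higher by 2.63 ± 0.50 from 22 UMIs, so the piRNA machinery was detected at low levels.

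Of 16 germ cell specification genes, 10 were tested, 7 were higher and 0 lower, with a median of 2.09. Dnd1, an RNA-binding protein that keeps germ cells alive, stood at 20.4, 26.2, 32.6 and 40.9 CPM against 2.02 to 5.28 (3.07 ± 0.21). Ifitm3, an interferon-induced membrane protein found in early germ cells, was detected in more cells but differed little (0.34 ± 0.08). Its direction turned (-0.36) when cells were thinned to 3000 UMIs and chosen again by the rule. Dppa3 (7.10 ± 0.89) and Tfap2c (5.06 ± 0.83) rested on 5 and 4 cells. Lin28a, Alpl and Nanos3 did not pass (-0.27 ± 0.22, 0.75 ± 0.32 and 0.52 ± 0.86).

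Some of the largest rises lay in germ cell genes outside the lists. Dmrt1, a transcription factor of the gonad and of germ cells, stood at 36.3, 44.5, 89.6, 51.2, 49.3 and 67.7 CPM from WT 1 to KO 2. In the other cells of the 4 tested libraries it reached 0.133 to 0.313 CPM (7.69 ± 0.29, adjusted p = 2e-12). Rbmxl2 stood at 0, 267, 147, 152, 191 and 159 CPM in the same order against 0.952 to 3.92 (5.71 ± 0.17), and was detected in 225 of the 310 cells (72.6%). Apart from WT 1, where the 4 cells held 27582 UMIs in all, every library had both genes far above its other cells. Others among the 12 largest rises were the X-linked Rhox1 (7.74) and Esx1 (6.23), Tex14, a gene of the bridges between germ cells (6.01), Gstt3 (6.19), the adhesion gene Icam1 (5.94) and the caveolar gene Cavin1 (5.73).

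Genes called higher (adjusted p under 0.05, edgeR) with log2 fold changes above 4 were spread over the chromosomes unevenly. They were 274 of the 14594 tested genes (1.88%), with 0.584 to 2.62% on each autosome and 34 of 528 (6.44%) on the X chromosome. Neighbouring members of the Rhox and Xlr families, some with similar sequences, are among X-linked genes, so these 34 are not independent.

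**Figure D3:**
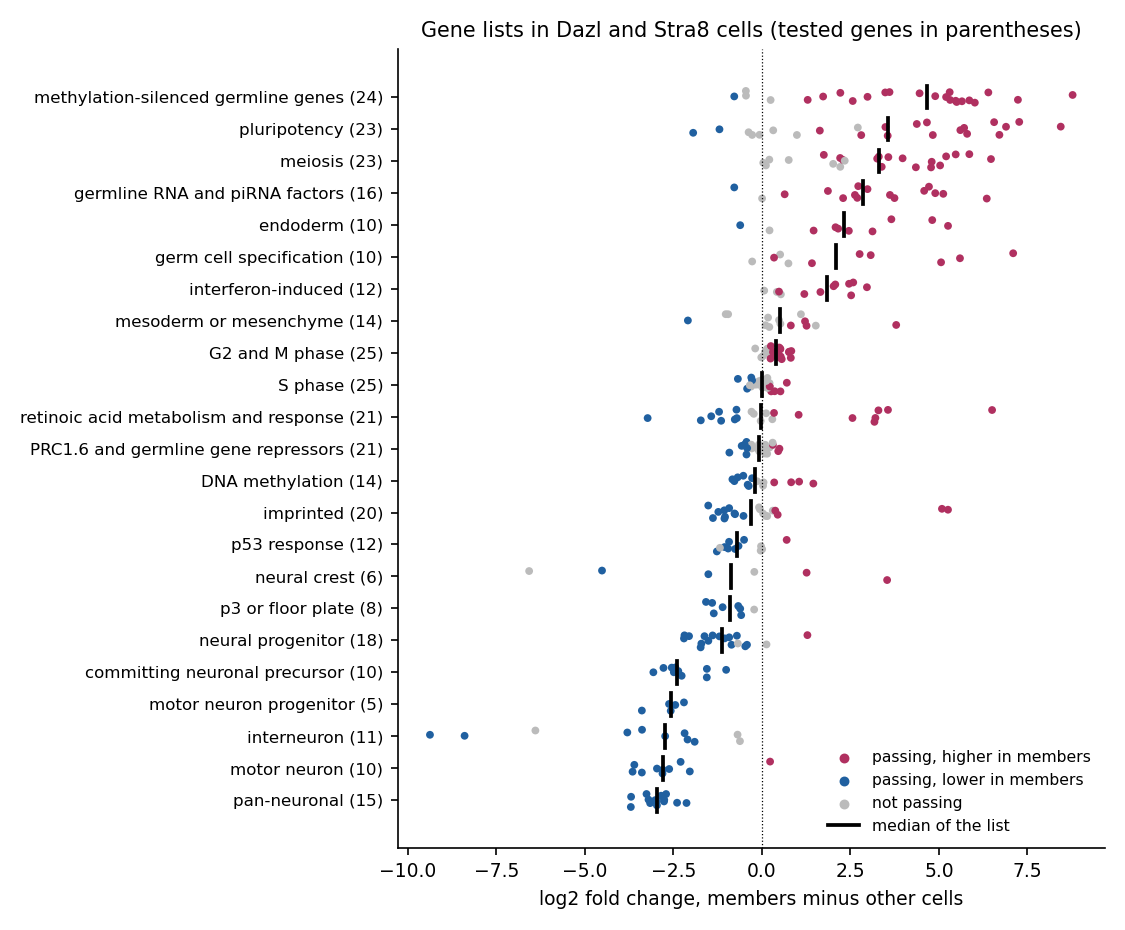
Log2 fold change of each tested gene, Dazl and Stra8 cells against other kept cells, in the lists with at least 5 tested genes. Each point is a gene and each bar a median; the methylation-silenced (median 4.68), pluripotency (3.55) and meiosis (3.30) lists lie highest and the pan-neuronal list (-2.97) lowest.

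Retinoic acid genes moved in both directions. Of 24, 21 were tested, 8 were higher, 8 were lower and the median was -0.03. The enzymes that remove retinoic acid or its precursor were higher: Cyp26a1 stood at 36.3 and 624 CPM in WT, 362 and 236 in DeltaSP and 569 and 165 in KO, against 1.56 to 4.76 in the other cells of the 4 tested libraries (6.50 ± 0.11, adjusted p = 2.6e-17). Cyp26b1 (3.21 ± 0.24) and Dhrs3, which turns retinaldehyde back to retinol (3.56 ± 0.20), were higher too. The receptor gene Rarg was higher (3.18 ± 0.32) and Rara lower (-0.77 ± 0.11).

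The binding proteins Crabp1 (-1.73 ± 0.31) and Crabp2 (-1.21 ± 0.09) and the synthesising enzyme Aldh1a2 (-1.43 ± 0.43) were lower. Among genes that respond to retinoic acid, Tgm2 (3.29 ± 0.24) and Hoxb1 (2.56 ± 0.40) were higher and Meis1 (-1.15 ± 0.10) and Meis2 (-0.72 ± 0.09) lower. Receptors and responding genes thus each held members of both directions.

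Regulators that silence germ cell genes differed less. Of 14 DNA methylation genes, 4 were higher and 7 lower with a median of -0.21. The de novo methyltransferases Dnmt3a (0.83 ± 0.11) and Dnmt3b (1.05 ± 0.19) and the methyl-CpG binder Zbtb38 (1.45 ± 0.18) were higher, and Tet1, Tet2 and Tet3, which oxidise methylated cytosine, were lower by -0.78 ± 0.25, -0.83 ± 0.24 and -0.52 ± 0.12. Dnmt3l, a germ cell cofactor of the methyltransferases counted in the pluripotency list, was higher by 6.90 ± 0.80 from 24 UMIs in 11 cells.

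Of 21 genes of PRC1.6 and other repressors, 3 were higher, 6 lower and the median was -0.08. Mga, the E-box protein of the complex, was at 48.9, 47.9, 67.5 and 61.0 CPM against 33.3 to 39.9 (0.46 ± 0.11), and Pcgf6, its Polycomb subunit, at 12.2, 32.5, 30.3 and 29.0 against 31.3 to 36.8 (-0.43 ± 0.14). None of these genes changed by more than 1 on the log2 scale, and their RNA was present in the cells.

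Pluripotency genes ranged from widely detected to confined to a few cells. Of 28, 23 were tested, 15 were higher, Sox2 (-1.20 ± 0.10) and Nr0b1 (-1.94 ± 0.44) were lower, and the median was 3.55. Sall4 (1.64 ± 0.18) was detected in 141 cells, Klf2 (4.38 ± 0.25) in 101, Spp1 (2.81 ± 0.20) in 80 and Zfp42 (5.71 ± 0.42) in 74. Dppa5a stood at 0, 5.57, 32.6, 196, 194 and 18.6 CPM from WT 1 to KO 2, against 0.0695 to 0.725 in the other cells of the tested libraries (8.44 ± 0.28). The 10 cells with the most Dppa5a held 83.6% of its 761 UMIs, and 10 cells held all 414 UMIs of the Nodal antagonist Lefty1, which reached 308 CPM in KO 1 and at most 2.97 CPM elsewhere.

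Only 9 of the 310 cells (2.90%) held a UMI of Pou5f1, Dppa3 or Nanog, and 4 held at least 2 of the 3. All 9 lay in the main cluster, 7 had Dazl and 8 had Dppa5a; 3 came from DeltaSP 2, 4 from KO 1 and 2 from KO 2. Esrrb and Fgf4, further genes of naive embryonic stem cells, had no UMI. The sums of Dppa3, Utf1, Gdf3 and Lefty1 in the comparison above therefore came from a few cells and do not describe the typical Dazl and Stra8 cell. Of 16 genes of the totipotent, 2-cell-like state 1 was tested and it did not pass.

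Neural genes were mostly lower. All 15 pan-neuronal genes were lower with a median of -2.97, as were all 10 genes of committing neuronal precursors (median -2.40) and all 5 of motor neuron progenitors (-2.57). Tubb3 stood at 52.9, 242, 94.0 and 329 CPM against 1242 to 1616 (-3.02 ± 0.26), and in the cells inside the main cluster at 50.8 CPM against 515 CPM in those outside. Olig2, the motor neuron progenitor factor, was lower by -2.57 ± 0.18, Lhx3 by -3.39 ± 0.25 and the acetylcholine-synthesising gene Chat by -3.65 ± 0.31.

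Of 10 motor neuron genes, 9 were lower and Foxp1 (0.23 ± 0.09) was higher; of 14 interneuron genes 11 were tested and 8 were lower. Among genes that reached 20 CPM, the largest fall was that of Lhx4 (-4.17 ± 0.32), followed by Th (-3.86) and the neurofilament genes Nefl (-3.70) and Nefm (-3.69). Each of the 15 pan-neuronal genes had a higher CPM in the Dazl and Stra8 cells outside the main cluster than in those inside it, given as a description.

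Progenitor genes were lower by smaller amounts. Of 20 neural progenitor genes, 18 were tested, 15 were lower, the Notch target Hes1 was higher (1.29 ± 0.11), and the median was -1.13. Vim, an intermediate filament of progenitors, stood at 468, 505, 393 and 752 CPM against 1351 to 1759 (-1.71 ± 0.10), and Sox2 at 85.5, 104, 80.4 and 96.7 against 163 to 255. Of 8 tested floor plate and p3 genes, 7 were lower, among them Shh by -1.40 ± 0.22. This Shh sum mixed unlike cells. Shh stood at 89.3 CPM in the 29 Dazl and Stra8 cells of the cluster with Shh and Foxa2. In those of the main cluster it stood at 3.09 CPM. Sox2 and Vim persisted at a lower level rather than being absent.

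Markers of other tissues were read next. Of 10 tested endoderm genes (14 on the list), 8 were higher, led by the adhesion gene Epcam at 93.7, 84.1, 237 and 182 CPM against 2.27 to 5.48 (5.26 ± 0.16), the keratin Krt18 (3.13 ± 0.32) and Cldn6 (4.81 ± 0.58). Foxa2 was lower (-0.61 ± 0.18), and Sox17 had 1 UMI and Afp and Apoa1 none. Of the 7 surface epithelium genes 4 were tested and higher, Epcam among them, and the basal keratins Krt5 and Krt14 had 1 and 0 UMIs. Foxa2 remained detectable, in 3.90% of the Dazl and Stra8 cells and 4.83% of the other cells after thinning to 3000 UMIs. Like the Shh sum, these Foxa2 values pooled unlike cells. Without thinning, Foxa2 stood at 66.9 CPM in the 29 Dazl and Stra8 cells of the cluster with Shh and Foxa2. In those of the main cluster it was far lower, so the pooled share does not describe the main cluster.

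Of 14 tested mesoderm genes 4 were higher, among them Tagln, an actin-binding protein of smooth muscle (3.79 ± 0.32), and Col3a1 was lower (-2.09 ± 0.45). No blood gene could be tested, 1 of 3 tested endothelial genes (Egfl7, 1.65 ± 0.13) was higher, and neural crest genes split 2 higher and 2 lower of 6.

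Cell cycle genes were slightly higher in late phases. Of 25 genes of G2 and M phase 18 were higher and 0 lower with a median of 0.41. Of these 18, Cdc20 (0.47) turned to -0.11 when cells were thinned to 3000 UMIs and chosen again by the rule. The 18 included Cdk1 (0.82 ± 0.08) and Top2a (0.41 ± 0.08). The 25 S phase genes split 6 higher and 4 lower with a median of 0.02. Mki67 was detected in 25.3% of the Dazl and Stra8 cells and 14.9% of the other cells after thinning to 3000 UMIs. The other cells include postmitotic neurons.

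Of 12 p53 response genes 7 were lower and 1 higher with a median of -0.71, and of 20 tested imprinted genes 10 were lower and 4 higher with a median of -0.30, among the latter Phlda2 (5.09 ± 0.65), which DeltaSP 2 led with 211 CPM. Of 12 interferon-induced genes 9 were higher with a median of 1.84. Bst2 stood at 538, 208, 155 and 265 CPM against 13.8 to 86.6 (2.52 ± 0.17), highest in DeltaSP 1 in both sets of cells.

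Further immune and metal-binding genes were picked after their values were seen. The metallothionein Mt1 stood at 725, 3424, 1743, 2923, 958 and 1229 CPM from WT 1 to KO 2, against 55.3 to 237 in the other cells of the tested libraries (3.70 ± 0.13). Psmb8, a subunit of the immunoproteasome, was higher by 4.78 ± 0.23, the peptide transporter Tap2 by 4.22 ± 0.20, Irf1, which acts on both, by 3.27 ± 0.20, and Gbp2 by 5.43 ± 0.37. With cells thinned to equal depth, Mt1 was detected in 66.25 to 93.3% of the Dazl and Stra8 cells of the tested libraries. In their other cells it was detected in 13.2 to 35.8%. In WT 2 the shares were 77.8% against 19.5%, but in WT 1 they were 25% against 33.2%. Mt1 was thus more often detected in the Dazl and Stra8 cells of every library except WT 1, which holds only 4 of them.

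**Figure D4:**
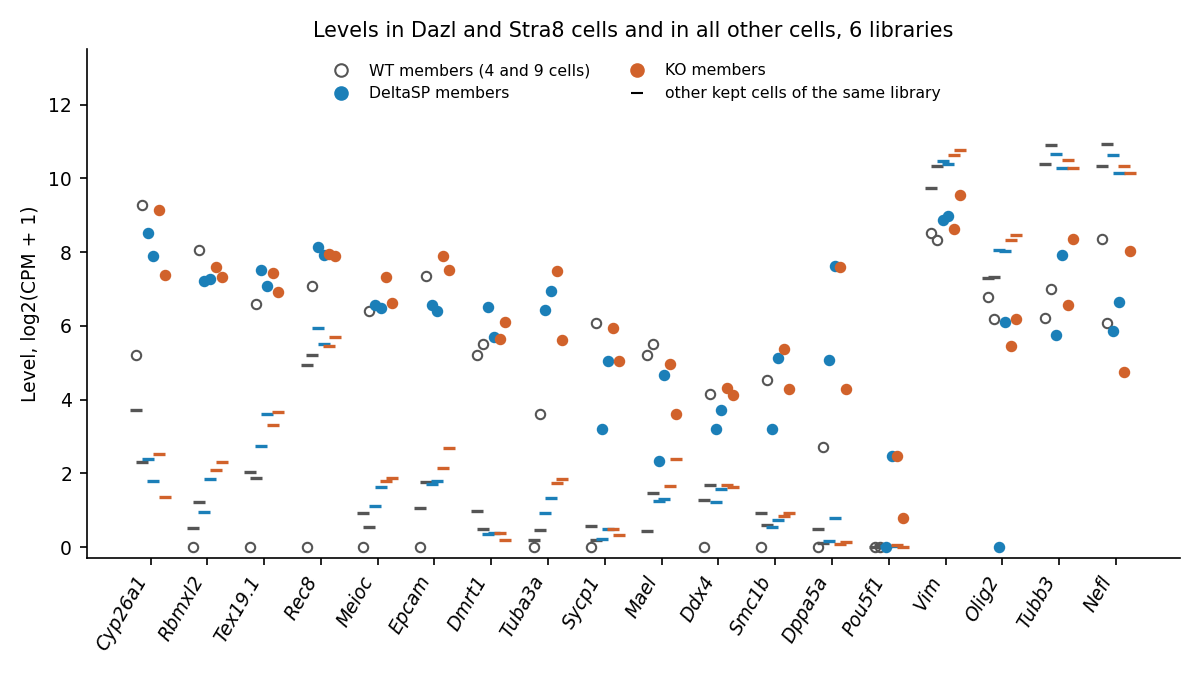
Level of 18 genes, log2(CPM + 1), in Dazl and Stra8 cells (circles, open for WT) and in other kept cells of the same library (dashes). In DeltaSP and KO the germ cell and retinoic acid breakdown genes lie above the dashes, except Pou5f1 in DeltaSP 1 (no UMI), and Vim, Olig2, Tubb3 and Nefl below them; WT 1, with 4 cells, has 0 for many of the genes.

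The difference in depth (median 14249.5 UMIs per Dazl and Stra8 cell against 9927 per other cell) was met by thinning each cell to 3000 UMIs, which kept 308 and 14418 cells. The share of cells with a UMI was then 33.1% against 0.513% for Rbmxl2, 45.8% against 1.19% for Cyp26a1, 34.1% against 0.444% for Meioc and 15.9% against 0.153% for Dmrt1. For Ddx4 it was 4.55% against 0.458%, and for Pou5f1 0.649% against 0%. Vim went from 89.9% of other cells to 49.4%, and Tubb3 from 52.6% to 16.2%. These genes kept their direction at equal depth in the same cells. The fit in which Cdc20 and Ifitm3 turned differed in more than depth. It applied the rule again to the thinned counts, which 211 cells of all libraries met, and the rest joined the other cells.

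The cells were not alike among themselves, and the pair of genes offered a way to divide them. In DeltaSP 2, KO 1 and KO 2, 60, 33 and 16 cells held Dazl, and 74, 47 and 52 held Stra8 alone; the other libraries had fewer than 10 in one set. Of 9163 genes, 49 (0.535%) were higher and 83 (0.906%) lower in the cells with Dazl, 1.44% in all, in edgeR with library as a block and Benjamini-Hochberg adjustment, and the median over all genes was 0.01. Cells with Dazl were deeper (median 15523 against 12769 UMIs), a difference whose part was not tested, and 75.0, 84.8 and 68.8% of them lay in the main cluster in these libraries against 77.0, 70.2 and 78.8% of the others.

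Some germ cell and early embryo genes were higher where Dazl was present. Tex19.1 stood at 200, 312 and 316 CPM in the Dazl cells of DeltaSP 2, KO 1 and KO 2, against 77.4, 45.9 and 47.0 CPM in the Stra8-only cells (2.22 ± 0.23, adjusted p = 0.00057). Sycp1 stood at 56.4, 124 and 87.2 CPM against 10.3, 2.87 and 11.2 (3.26 ± 0.34, adjusted p = 0.00062), and Tuba3b at 51.1, 133 and 131 against 5.53, 0 and 0 (5.26 ± 0.54). In these 3 genes the Dazl cells of each library were above the Stra8-only cells of every library.

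Also higher were Ooep, an oocyte gene (4.60 ± 0.67), Rhox1 (3.04 ± 0.51), Slc25a31 and Cyct, testis forms of the mitochondrial nucleotide carrier and of cytochrome c (2.43 ± 0.44 and 2.36 ± 0.51), Smc1b (1.75 ± 0.28) and Stk31 (2.09 ± 0.47). Dppa5a was higher by 2.84 ± 0.59 with 291, 412 and 68.1 CPM against 111, 0 and 0. In the lists, 6 of 18 tested methylation-silenced genes, 2 of 11 germline RNA genes, 2 of 12 meiosis genes and 2 of 9 pluripotency genes were higher and none of them lower, while of 7 specification genes 0 were higher and Ifitm3 (-0.70) was lower. Meioc (0.49 ± 0.14) and Rec8 (0.05 ± 0.11) did not pass.

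Cells with Stra8 alone held more of the retinoic acid breakdown enzymes and of neuronal commitment genes. Cyp26a1 stood at 137, 396 and 54.5 CPM in the Dazl cells against 324, 723 and 207 CPM in the Stra8-only cells of the same libraries (-1.15 ± 0.14, adjusted p = 0.0026), and Cyp26b1 was lower with Dazl by -1.66 ± 0.38. Gadd45g, a gene of committing precursors, stood at 30.8, 11.3 and 38.2 CPM against 114, 120 and 92.0 (-2.04 ± 0.27), below the Stra8-only cells in each library. Neurod4 (-2.03 ± 0.39), Mnx1 (-1.83 ± 0.38) and Isl1 (-1.79 ± 0.31) were lower with Dazl.

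Of the lists, 4 of 7 tested committing precursor genes, 3 of 7 motor neuron genes, 3 of 17 retinoic acid genes and 3 of 12 interferon-induced genes were lower in the cells with Dazl and none of them higher. Hoxb6, a trunk patterning gene, fell by 1.66 ± 0.22 on the log2 scale, and the interferon-induced Ifit1 by 1.66 ± 0.32 and Oasl2 by 1.54 ± 0.26. The counts depended on the libraries: without KO 1 25 genes were higher and 32 lower, and without KO 2 107 were higher and 142 lower. DESeq2 called 9 and 17, and of the genes with the largest changes Sycp1, Tuba3a, Tex19.1, Gadd45g and Hoxb6 passed there.

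**Figure D5:**
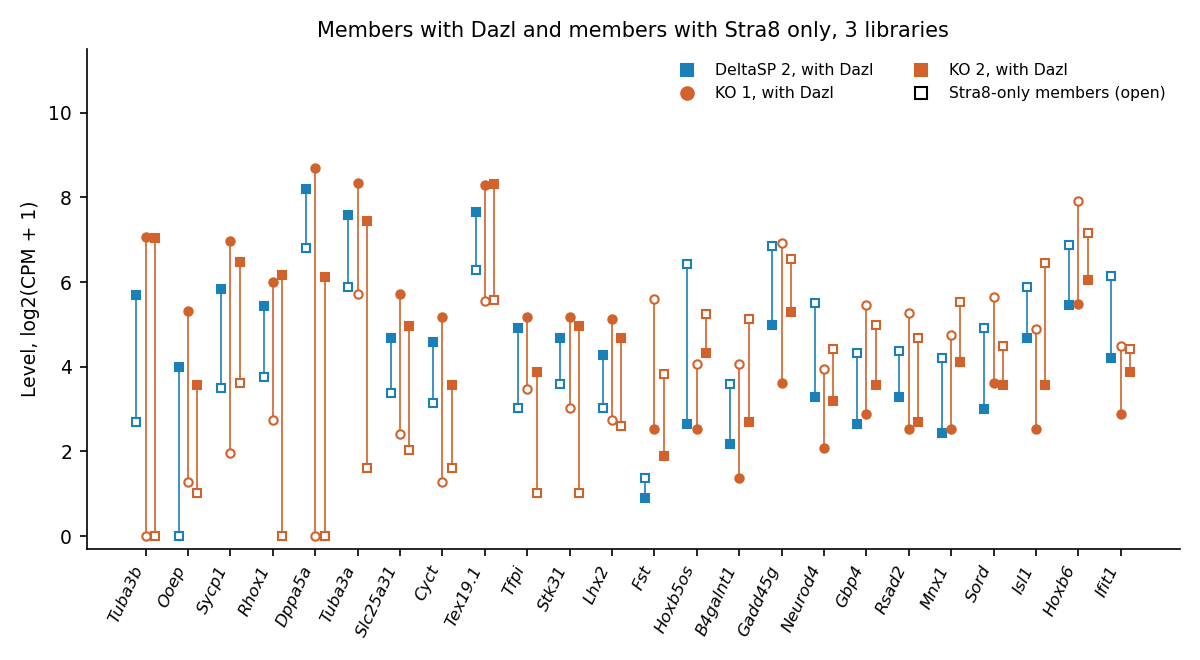
Level of 24 genes, log2(CPM + 1), in cells with Dazl (filled) and cells with Stra8 alone (open) in DeltaSP 2, KO 1 and KO 2. Tex19.1, Sycp1 and Tuba3b lie higher with Dazl and Gadd45g, Neurod4 and Isl1 lower, in each of the 3 libraries.

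As a description, the genes whose level rose most with each of the pair were listed over all kept cells, with a pseudocount of 1 CPM. In 104 cells with at least 2 UMIs of Dazl against 16082 cells with none, the log2 ratios of CPM were 7.32 for Lefty1, detected in 4 of these cells, 7.20 for Dppa5a, 6.34 for Tuba3b, 6.31 for Tuba3a and 5.75 for Sycp1. In 294 cells with at least 2 UMIs of Stra8 against 15739 with none they were 6.69 for Dppa5a, 6.07 for Lefty1, 6.002 for Cyp26a1, 5.72 for Rbmxl2 and 5.57 for Tuba3a. Cyp26a1 and Rbmxl2, each detected in 73.1% of the Stra8 cells, were the broad ones among these.

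Between genotypes, only KO and DeltaSP had enough of the cells to be compared within them. Of 9928 genes, 0 (0.0%) passed an adjusted p of 0.05 in edgeR, 535 (5.39%) had an unadjusted p under 0.05, and DESeq2 called 0 higher and 3 lower. The smallest adjusted p, 0.140, was that of Rhox9, at 102 and 114 CPM in DeltaSP and 32.6 and 26.0 CPM in KO (-2.04 ± 0.24), whose reads may be shared with Rhox6. The next 4 by p were Dynlt1f (-1.62), Ifitm3 (-1.35), Acta1 (-5.51) and Etfb (-1.30), none of which passed. All 5 passed with no filter on low counts, with the replicate number as a block, without DeltaSP 1 and without KO 1, Rhox9 and Ifitm3 also with DESeq2, and Rhox9 also without KO 2. With 15 cells in DeltaSP 1, this does not show that the cells of both genotypes are alike, and without that library 94 genes were lower in KO, without KO 1 26 were higher and 65 lower, without KO 2 7 and 3, and without DeltaSP 2 0 and 3.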

How the data were processed

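Single-cell libraries of day 6 embryoid bodies were read from 6 deposited tables of UMI counts, 1 per library. Per the submitters' processing notes, the authors made these counts with Cell Ranger 4.0 against mm10. The deposited counts are whole numbers per gene and barcode, without normalization. The chemistry is given as 10x 3' V3 or V3.1 in the labels, which differ on this. Groups came from the labels, which give no batch.

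Cells were kept at 1000 genes or more and 10% mitochondrial UMIs or less, and no doublet caller was run. Counts were summed per library. The 4 libraries with at least 10 Dazl and Stra8 cells entered the fits within these cells, which leaves WT out of them. Tests used edgeR 4.0.16 (quasi-likelihood, TMM, filterByExpr, R 4.3.3) with Benjamini-Hochberg adjustment over all genes tested and a threshold of 0.05; DESeq2 1.42.0 was an alternative. Shares were compared with exact permutation tests over libraries. Clusters used scanpy 1.11.5 and leidenalg 0.10.2 without Dazl and Stra8. The fits were tested on simulated data. Genes named are the 12 largest changes in each direction among genes called and reaching 20 CPM, plus members of the lists. The cells and the gene lists were chosen with earlier results of these data known. Replicate numbers name clones: deviations of same-numbered libraries correlated at -0.02 (KO with DeltaSP, within the cells), 0.29 (KO with WT), -0.22 (DeltaSP with WT) and 0.02 (KO with DeltaSP) over all kept cells. Other settings tried are listed in the closing part. Intervals cover counting error only.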

Additional observations from a re-analysis of the deposited data

Results flagged for a closer look

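Barcodes that failed the cell filter were used in no comparison, and some held 2 or more UMIs of Dazl and Stra8 at a share above that in either WT library (1 of 4846, 0.0206%, in WT 1 and 0 of 549 in WT 2). The share was 0.297% in DeltaSP 2 (3 of 1011 failed barcodes), 1.08% in KO 1 (4 of 369) and 0.214% in KO 2 (1 of 467), and 0 of 748 in DeltaSP 1. The highest such barcode, in KO 1, held 15 UMIs of the pair.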

How the results depend on the processing

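Thinned to 3000 UMIs, with the rule applied again to the thinned counts, the comparison with other cells called 1429 genes higher and 2239 lower. Cdc20 (-0.11) and Ifitm3 (-0.36) changed sign in it. Leaving out each library in turn gave 2440 to 3198 higher and 2969 to 3769 lower. Of 2232 values for 177 named genes under other settings, 2187 kept direction and side of the threshold, 30 lost the call, 13 gained it and 2 reversed. In cells with Dazl against cells with Stra8 alone, the genes higher numbered 83 with 3 UMIs, 9 with DESeq2, 77 with the looser cell filter, 88 within the largest cluster, 220 with no filter on low counts and 25 to 107 with 1 library left out. The genes lower numbered 17 with DESeq2, 149 within the largest cluster, 279 with no filter and 32 to 142 with 1 library left out. In KO against DeltaSP within the cells, 23 were higher and 157 lower with no filter, 3 lower with DESeq2, and 0 to 26 higher and 3 to 94 lower with 1 library left out. With the replicate number as a block 13 were higher and 44 lower; over all kept cells the block gave 1014 calls for KO against WT (1121 without it), 22 for DeltaSP against WT (53 without it) and 1 for KO against DeltaSP. With the WT numbers crossed the calls were 638 and 7 for the first pair; this and the restriction to the largest cluster were chosen after seeing the data. The labels do not say that the numbers pair the libraries, and correlations from 2 libraries per genotype cannot settle it.

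Over all kept cells, Dazl in KO against WT was 3.68 with DESeq2, 3.64 with no filter and 3.17 to 4.53 with 1 library left out. Stra8 was 2.90 with no filter and 2.13 to 5.07. Both passed the threshold with no filter. In DeltaSP against WT, no filter gave 2.88 for Dazl and 2.83 for Stra8, each then past the threshold, and leaving out 1 library gave 0.94 to 3.75 and 1.11 to 4.98. Dazl in KO against DeltaSP ran from 0.0017 (without DeltaSP 1) to 2.69 (without DeltaSP 2). Stra8 in KO against DeltaSP ran from -0.67 (without DeltaSP 1) to 1.79 and was -0.34 without KO 1. Without WT 1, a setting added for all genes after seeing the data, the germ cell gene calls of KO against WT were lost. The share differences ran from 2.91 to 3.43 points (KO less WT), 0.33 to 3.40 (DeltaSP less WT) and -0.222 to 2.84 (KO less DeltaSP). At a finer clustering 82.6% of the cells lay in 1 cluster. Where a call changed, the cause was not tested. KO and DeltaSP against WT within the cells were not run, since the WT libraries hold 4 and 9 of them.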
